A study of Mus musculus with 12 samples.

Results

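Insulin glargine was compared with saline in whole mouse liver, across every probe set of the array that was bright enough in either group. A probe set is the group of probes on the array assigned to a transcript cluster, usually a gene. Its value is on the log2 scale. The rule kept the probe sets with a value over 5 in at least 2 of the insulin glargine arrays or at least 2 of the saline arrays, and 25927 of the 28213 probe sets met it. Of these, 20454 carried 1 gene symbol.

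Mice received 55 nmol/kg insulin glargine (Lantus) or saline under the skin, and livers were taken 6 h later. Each group has 3 arrays. All mice were wild-type C57BL/6. The labels give an age of 6 weeks, and the methods, which state an older age, describe female C57BL/6J mice. The series holds 12 arrays, and the other 6 hold livers taken at the same time after the same molar dose of Albulin (insulin fused to albumin) or Insulin-Apo (insulin fused to apolipoprotein A-I), both made in E. coli. Those arrays entered the fit to estimate the spread. The array methods name the saline, Albulin and Insulin-Apo groups, so the insulin glargine group rests on the sample labels. The hour of day, the feeding state, blood glucose at sampling, the set in which each array was processed and whether each array is a separate mouse are not given here by any source. A difference in any of these between the groups cannot be told apart from the treatment, and p-values cover only the spread from array to array.

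Insulin glargine is an insulin analogue that enters the blood slowly from its injection site. In hepatocytes, insulin binds its receptor and signals through insulin receptor substrates, phosphatidylinositol 3-kinase and the kinase AKT. AKT keeps FoxO transcription factors out of the nucleus, which lowers genes of glucose output, and the pathway raises the lipogenic factor SREBP-1c. The liver also runs a daily clock of transcription factors that repress one another in turn, and feeding and insulin are known inputs to it.

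The labelled tissue was checked against its markers. Limma called none of the 9 hepatocyte genes tested, of which 0 had an unadjusted p under 0.05, and albumin (Alb) read 14.85, 14.82 and 14.86 in the insulin glargine arrays and 14.81, 14.82 and 14.82 in the saline arrays. The female-specific transcript Xist was high in all 6 arrays, at 13.08, 13.15 and 13.49 after insulin glargine and 13.05, 13.24 and 13.29 after saline. Ins2, an insulin gene of pancreatic islets, stayed between 6.95 and 7.24. The insulin glargine arrays varied more among themselves than the others, with a mean SD of 0.158 within the group, against 0.0987 for saline. Replicate 3 of insulin glargine stood apart. In it, 9.04% of the probe sets lay more than 0.5 from the mean of the other 2 arrays of its group, against 2.68% and 2.78% in insulin glargine replicates 1 and 2, and at most 0.945% in any saline array. Its correlation with the other insulin glargine arrays averaged 0.9898, against 0.9967 to 0.9968 among the saline arrays.

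Insulin glargine was followed by changes in many genes, both higher and lower. Limma called 1265 of the 25927 probe sets (4.88%), 584 higher (2.25%) and 681 lower (2.63%) after insulin glargine. A probe set was called when its B statistic, the log odds that it differs, was over 0, and the largest Benjamini-Hochberg adjusted p among the calls was 0.00888. Limma's unadjusted p was under 0.05 for 5861 of the 25927 probe sets. The median log2 fold change of all probe sets tested was -0.000403. The calls covered 1102 named genes, and 194 probe sets differed by at least 1 on the log2 scale, 91 higher and 103 lower. The arrays of the groups did not overlap for any of the 1265 called probe sets, beside 24.9% of all probe sets tested. Without insulin glargine replicate 3 the count was 1367, with 728 higher and 639 lower. Without saline replicate 2 it was 821, and with only the 6 arrays of the comparison in the fit it was 783.

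**Figure D1:**
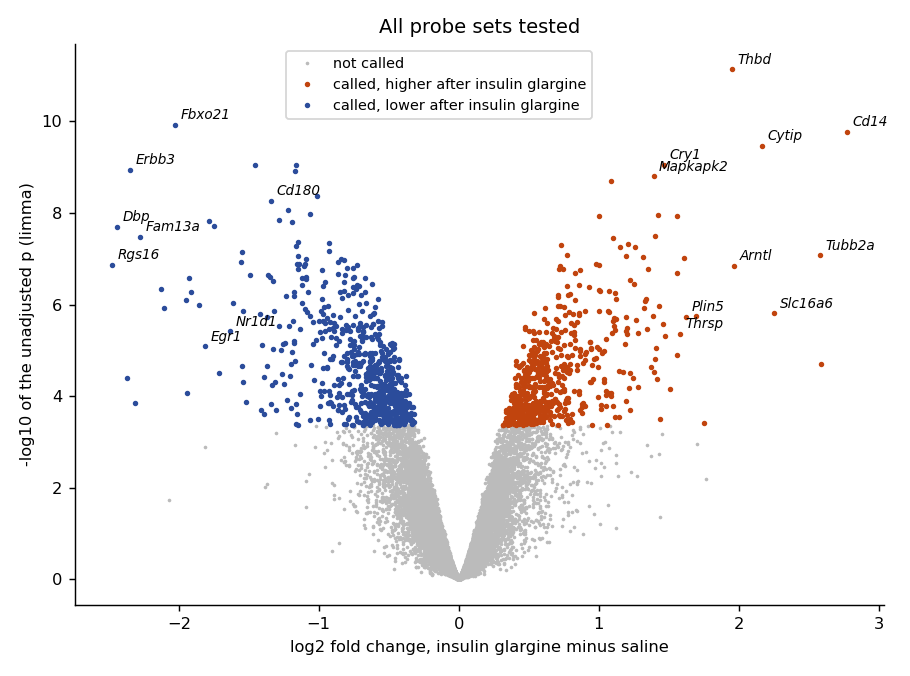
Each point is a probe set, with the log2 fold change (insulin glargine minus saline) on the x axis and -log10 of limma's unadjusted p on the y axis. The 584 probe sets called higher are red and the 681 called lower are blue, with Cd14 (2.77) and Rgs16 (-2.48) among the farthest out.

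The gene with the largest called increase was Cd14, the co-receptor that hands bacterial lipopolysaccharide to the receptor TLR4. Cd14 read 10.69, 10.96 and 10.55 in the insulin glargine arrays, against 7.93, 7.86 and 8.09 in the saline arrays. Every insulin glargine array was far above every saline array, a 6.84-fold difference (log2 fold change 2.77, SE 0.15, adjusted p = 1.44e-06). Tubb2a, a beta-tubulin, read 11.59, 11.40 and 12.15 after insulin glargine and 9.26, 8.80 and 9.33 after saline (log2 fold change 2.58, SE 0.23). Tubulin genes are alike in sequence, so probes may share signal among them. Slc16a6, a monocarboxylate transporter shown in zebrafish to export ketone bodies from liver, had values of 11.13, 9.93 and 10.30 after insulin glargine, against 8.29, 8.03 and 8.29 after saline (log2 fold change 2.25, SE 0.27). Its insulin glargine arrays spread over more than 1 log2 unit and still did not meet the saline arrays.

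Cytip, a cytohesin-binding protein of leukocytes, and Thbd, thrombomodulin of the endothelial surface, rose with little spread. Thbd read 10.13, 10.01 and 9.86 in the insulin glargine arrays and 8.07, 7.95 and 8.13 in the saline arrays (log2 fold change 1.95, SE 0.08, adjusted p = 1.9e-07), and Cytip differed by 2.17 (SE 0.12). In whole liver, a change in the number of cells of a type and a change in their RNA per cell cannot be told apart. Others among the 15 largest increases were Pik3c2g (1.70), a class II phosphatidylinositol 3-kinase of liver, Tgfb3 (1.61), a transforming growth factor beta, Mrap (1.56), an accessory protein of the ACTH receptor, Agxt (1.56), the enzyme that clears glyoxylate, and Tgm2 (1.47), a protein cross-linking transglutaminase. The remaining members of the 15 were Arntl, Cry1, Cidec, Plin5 and Thrsp, described with their pathways.

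The largest called decrease was that of Rgs16, which switches off G protein signals and is a rhythmic gene in liver, with 9.17, 9.04 and 9.25 after insulin glargine and 12.11, 11.46 and 11.32 after saline (log2 fold change -2.48, SE 0.23). Dbp, a clock output factor, and Erbb3, a receptor of the epidermal growth factor receptor family that binds neuregulins, were among the next. Erbb3 read 8.80, 9.53 and 9.01 in the insulin glargine arrays, against 11.59, 11.49 and 11.30 in the saline arrays, with adjusted p = 3.47e-06. In neither gene did any insulin glargine array come near the saline range. Phf11c (-2.37) and the histone methyltransferase gene Setdb2 (-2.31) are neighbours on chromosome 14. Both moved array by array in parallel, with saline replicate 2 the lowest saline array for each. Setdb2 lost its call without insulin glargine replicate 1 or 3 or saline replicate 1 or 3 (adjusted p between 0.00278 and 0.0227 over all alternatives). Fam13a (-2.27), Fbxo21 (-2.03), which encodes a ubiquitin ligase subunit, Keg1 (-2.11), Apol7a (-1.93), BC023105 (-1.92) and Meiob (-1.78), a meiotic DNA-binding protein gene, were also among the 15. Hsd3b2 (-1.95) encodes a hydroxysteroid dehydrogenase, and its paralog Hsd3b3, picked after its values were seen, fell by 1.71 on the log2 scale. The Hsd3b genes are near-identical copies, so their signals may not be separate.

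**Figure D2:**
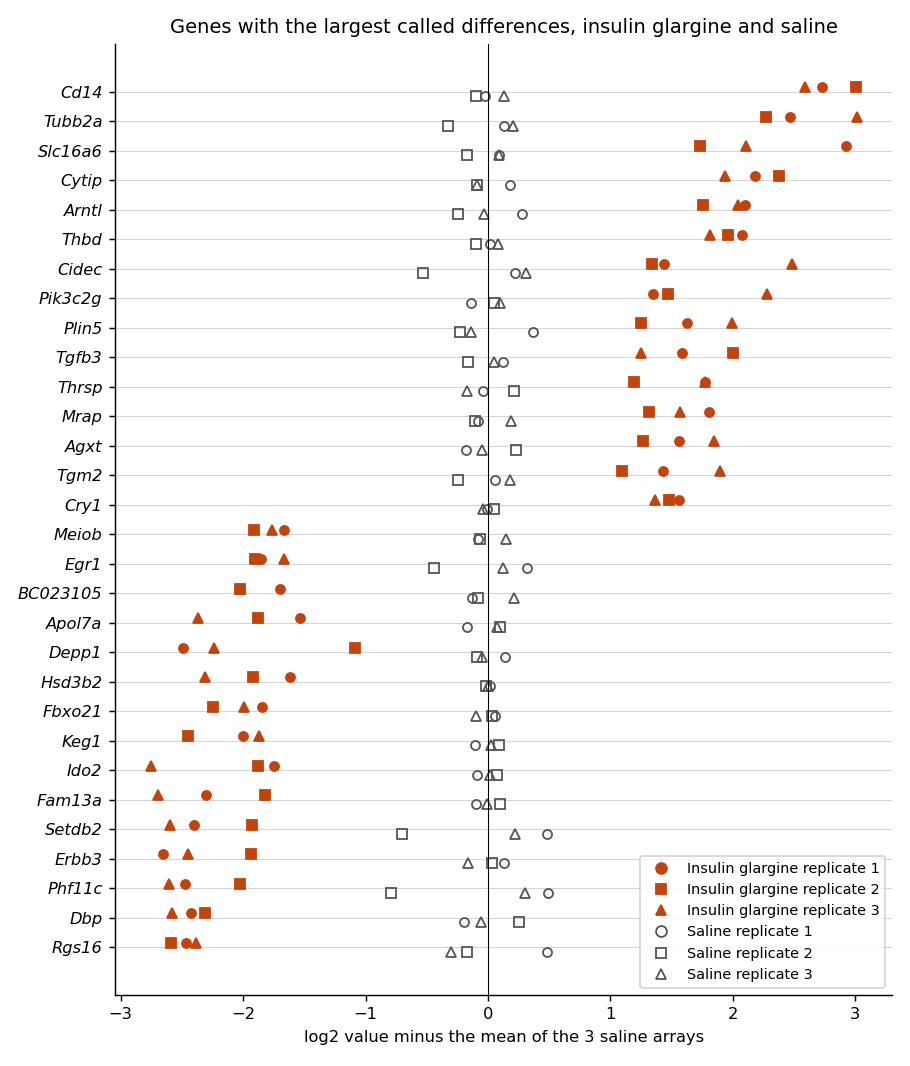
Each row is a gene, and the x axis gives the log2 value of an array minus the mean of the 3 saline arrays, for the 15 largest called increases and 15 largest called decreases among genes with 1 symbol. Filled red symbols are insulin glargine arrays and open grey symbols are saline arrays. The groups do not overlap in any row, and insulin glargine replicate 3 lies farthest from saline for Cidec, Pik3c2g and Tubb2a, among others.

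Genes of insulin signalling moved in both directions. Of 24 members of the list of insulin signalling and FoxO targets, 3 were called higher and 1 lower (4.88% of all probe sets were called), with a median log2 fold change of -0.11. Pik3r1, the regulatory subunit of phosphatidylinositol 3-kinase, read 12.02, 12.16 and 11.92 after insulin glargine and 11.11, 11.16 and 11.38 after saline (log2 fold change 0.81, SE 0.10, adjusted p = 0.000269). The groups were separate by more than the range of either. Grb14, an adaptor that inhibits the insulin receptor, rose by 0.59 (SE 0.09). Foxo1, the FoxO factor of gluconeogenesis, had 11.42, 11.28 and 11.30 in the insulin glargine arrays, against 10.56, 10.19 and 10.38 in the saline arrays (log2 fold change 0.95, SE 0.20, adjusted p = 0.00886). Its arrays did not overlap, but its call was lost in 9 of 20 alternatives, among them every fit without 1 of the 6 arrays (adjusted p between 0.00466 and 0.0453 over all alternatives). Sesn3, a FoxO target, fell by 0.47 on the log2 scale, a call lost in 12 of the 20, among them the fits without any 1 of these arrays other than insulin glargine replicate 1.

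The receptor gene Insr read 11.64, 11.71 and 11.74 after insulin glargine and 12.07, 11.90 and 12.09 after saline. Its difference of -0.32 (SE 0.07, adjusted p = 0.00917) just missed the call. Irs2, an insulin receptor substrate that FoxO factors raise, differed by -0.12 (SE 0.21), and Igfbp1, a secreted binding protein that insulin is known to repress, by 0.62 (SE 0.26). Igfbp1 had values of 13.62, 13.79 and 13.21 after insulin glargine, against 13.27, 12.42 and 13.09 after saline, so that the groups overlapped. Neither gene was called.

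Among 19 genes of gluconeogenesis and glucose output, 1 was called higher (Foxo1 again) and none lower (5.26%, beside 4.88% of all probe sets), with a median of -0.02. Pck1, the cytosolic enzyme that makes phosphoenolpyruvate, read 13.79, 13.92 and 13.54 in the insulin glargine arrays and 14.23, 14.12 and 14.17 in the saline arrays. The groups were separate but the difference of -0.42 (SE 0.09, adjusted p = 0.0115) was not called. G6pc, the glucose 6-phosphatase that releases glucose, differed by 0.14 (SE 0.12), with overlapping arrays. Of 22 genes of glycolysis and glucose uptake, 3 were called higher and 1 lower (18.2%), with a median of 0.02. Slc2a1, the glucose transporter GLUT1, read 11.22, 11.40 and 10.90 after insulin glargine and 10.27, 10.50 and 10.39 after saline (log2 fold change 0.79, SE 0.12). Aldoa, the muscle-type aldolase, rose by 0.73 (SE 0.11) and Pfkp, a phosphofructokinase, by 0.43 (SE 0.09), the last a call lost in 11 of 20 alternatives, and without any 1 array other than saline replicate 1. Pdk2, a kinase that shuts off pyruvate dehydrogenase, fell by 0.65 on the log2 scale. Slc2a2, the main glucose transporter of hepatocytes, differed by -0.55 (SE 0.12) without being called.

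Fatty acid synthesis genes had 1 call, higher, among 19 members (2.25% of all probe sets were called higher). Their median was 0.12. The called gene was Thrsp, the small protein Spot 14 that promotes lipogenesis, which read 10.85, 10.27 and 10.85 after insulin glargine, against 9.03, 9.28 and 8.90 after saline (2.99-fold, log2 fold change 1.58, SE 0.20, adjusted p = 0.000463). Fasn, the fatty acid synthase, had 10.66, 10.88 and 11.57 in the insulin glargine arrays and 10.23, 9.81 and 9.79 in the saline arrays. The groups did not overlap, yet the difference of 1.09 (SE 0.24, adjusted p = 0.0108) was not called, with insulin glargine replicate 3 the highest array. Acly, which makes cytosolic acetyl-CoA, differed by 0.49 (SE 0.17), Acaca, acetyl-CoA carboxylase, by 0.36 (SE 0.13) and Srebf1, the gene of SREBP-1, by 0.57 (SE 0.17). A second probe set of Acaca differed by 0.57 (SE 0.14, adjusted p = 0.0185). Acss2, another member, went the other way, by -0.74 (SE 0.18, adjusted p = 0.022), and its arrays did not overlap. None of these was called. Scd1, the stearoyl-CoA desaturase, read 14.12, 13.72 and 14.07 after insulin glargine and 14.18, 13.88 and 14.15 after saline, and Angptl8, a secreted protein of feeding, had 11.12, 11.07 and 10.28 in the insulin glargine arrays and 10.74, 10.67 and 11.01 in the saline arrays. In both genes the groups overlapped, and these genes were picked after their values were seen.

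Of 22 genes of triglyceride synthesis and storage, 2 were called higher and none lower (9.09%, beside 4.88% of all probe sets), with a median of 0.15. Both encode proteins of the lipid droplet. Plin5, a perilipin that ties droplets to mitochondria, read 11.83, 11.45 and 12.19 after insulin glargine, against 10.57, 9.97 and 10.06 after saline (log2 fold change 1.62, SE 0.19, adjusted p = 0.000289). Cidec, which fuses droplets, had 11.13, 11.04 and 12.17 in the insulin glargine arrays and 9.91, 9.16 and 10.01 in the saline arrays (log2 fold change 1.75, SE 0.36). Insulin glargine replicate 3 was more than 1 log2 unit above the other insulin glargine arrays for Cidec. Without it the difference was 1.39 (adjusted p = 0.0198) and not called. The call was lost in 10 of 20 alternatives (adjusted p between 0.00542 and 0.0432 over all), among them the fits without insulin glargine replicate 1 and without each saline array. Plin4, another perilipin, differed by 1.13 (SE 0.30) without a call, and its values of 9.35, 9.53 and 10.86 after insulin glargine were also highest in replicate 3. Fitm1 (-0.73, SE 0.19) and the perilipin gene Plin1 (-0.04, SE 0.07) were not called. Gpat4, which starts glycerolipid synthesis, was picked after its values were seen and rose by 0.79 (SE 0.09).

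**Figure D3:**
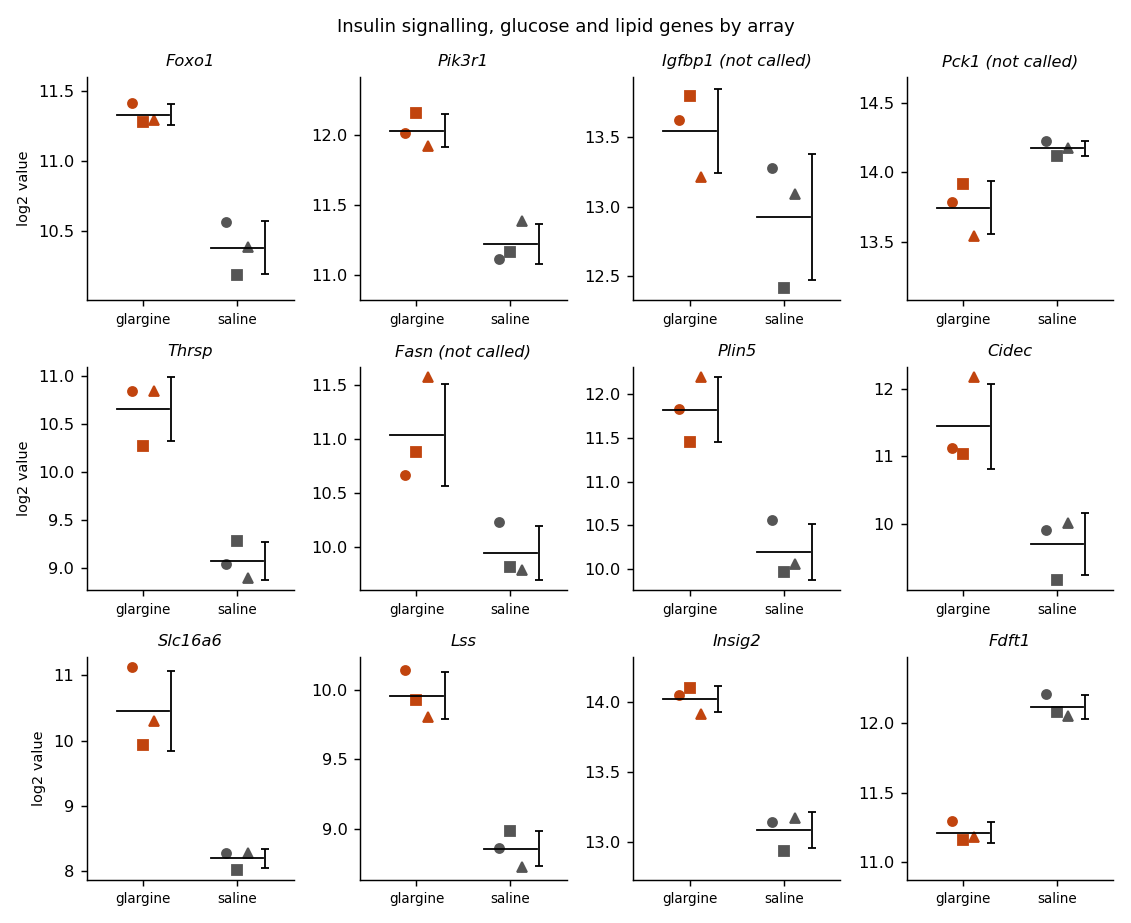
Log2 value of each array (y axis) for 12 genes of insulin signalling, glucose and lipid metabolism, with insulin glargine left of saline in each panel. Points are arrays (circle, square and triangle for replicates 1, 2 and 3), lines are means and bars are the SD of 3 arrays. Slc16a6, Plin5 and Thrsp lie well above saline in every insulin glargine array, and the Igfbp1 arrays overlap.

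Cholesterol synthesis genes were split. Of 21 genes of cholesterol synthesis and uptake, 3 were called higher and 1 lower (19%, beside 4.88% of all probe sets). The median was -0.05. Lss, lanosterol synthase, read 10.14, 9.92 and 9.80 after insulin glargine and 8.86, 8.98 and 8.73 after saline (log2 fold change 1.10, SE 0.14). Insig2, a brake on SREBP processing whose liver transcript is known to fall with insulin, had 14.05, 14.10 and 13.92 in the insulin glargine arrays, against 13.14, 12.93 and 13.17 in the saline arrays, and rose by 0.94 (SE 0.13, adjusted p = 0.000611). Ebp, a sterol isomerase, rose by 0.50 (SE 0.08). Fdft1, squalene synthase, went the other way, with 11.30, 11.16 and 11.18 after insulin glargine and 12.21, 12.08 and 12.05 after saline (log2 fold change -0.90, SE 0.11), and its second probe set fell by 1.23 on the log2 scale. The enzyme that makes squalene and an enzyme that acts after it thus moved in opposite directions. Sqle, squalene epoxidase, differed by 0.79 (SE 0.25) and Hmgcs1, an early enzyme of the pathway, by -0.32 (SE 0.10), and neither was called. Npc1, which moves cholesterol out of lysosomes, fell by 0.96 on the log2 scale, and Abca1, which loads cholesterol onto high-density lipoprotein, rose by 0.74. Both were picked after their values were seen.

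Bile acid genes had a single call among 19 members (5.26%, beside 4.88% of all probe sets). This was Slco1b2, a hepatocyte uptake transporter, which fell by 0.43 on the log2 scale. The list's median was -0.24. Cyp7a1, the rate-limiting enzyme of bile acid synthesis, read 13.18, 13.13 and 13.37 after insulin glargine and 13.63, 13.75 and 13.52 after saline. Its arrays did not overlap, with an SD of 0.13 after insulin glargine and 0.12 after saline. The difference of -0.41 was not called. Its large SE of 0.50 was pooled over all 4 groups, so it comes mostly from the Albulin and Insulin-Apo arrays. The adjusted p lay between 0.0523 and 0.87 over all alternatives. Cyp8b1, the sterol 12-alpha-hydroxylase, had 11.67, 11.50 and 12.32 in the insulin glargine arrays and 13.12, 13.03 and 12.84 in the saline arrays (log2 fold change -1.17, SE 0.28, adjusted p = 0.0168). It was not called with all arrays, but was without insulin glargine replicate 3 (-1.41, adjusted p = 0.00574, beside 0.0026 to 0.0627 over all alternatives), when 3 members of the list were lower. Of 6 genes of ketone synthesis and export, 2 were called higher (33.3%), the transporters Slc16a6 and Slc16a1 (0.70, SE 0.14). The call of Slc16a1 was lost without insulin glargine replicate 1 or 3 or saline replicate 2. Limma made no call among 19 respiratory chain genes, of which 1 had an unadjusted p under 0.05, at the brightest probe set of each. Of Cycs, cytochrome c, the other 2 probe sets were called higher (0.41 and 0.47). Of 24 genes of fatty acid oxidation, 1 was lower and none higher (4.17%, beside 4.88% of all probe sets). It was Acot3, a peroxisomal acyl-CoA thioesterase, which fell by 1.20 on the log2 scale.

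Clock genes changed in both directions, and the core clock list had the highest share of called members among the pathway lists. Of 13 core clock genes tested, 3 were called higher and 2 lower (38.5%, beside 4.88% of all probe sets), with a median of 0.22. Of 16 clock output genes, 2 were called higher and 3 lower (31.2%), with a median of 0.00495. Arntl and Clock encode BMAL1 and CLOCK, the activators that bind E-box elements. Cry and Per proteins repress them. Nr1d1 encodes REV-ERB alpha, which represses Arntl through ROR elements, and Dbp, Tef and Nfil3 proteins act on D-box elements.

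Promoters of 3 of these genes are shown because they hold the binding letters of the factors just named. The sequences are from RefSeq on mouse build GRCm38.p6, run 5′ to 3′ along the gene from 250 bases before a start site to 50 after, and have the searched letters in capitals. The searches covered both strands for CACGTG (E-box), AGGTCA (the core of ROR elements) and TTATGTAA (a D-box). Of 32851 mouse promoters of this length, 7.15% hold the E-box letters, 16.3% the ROR core and 0.938% the D-box. The Arntl window at chr7:113207261-113207560 (+ strand) belongs to 1 of 2 listed starts and has the ROR core 32 bases into the transcript. The Cry1 window at chr10:85185005-85185304 (- strand) has an E-box 60 bases before the start. The Per3 window at chr4:151044616-151044915 (- strand) has 2 D-boxes, 205 and 158 bases before the start.
Arntl: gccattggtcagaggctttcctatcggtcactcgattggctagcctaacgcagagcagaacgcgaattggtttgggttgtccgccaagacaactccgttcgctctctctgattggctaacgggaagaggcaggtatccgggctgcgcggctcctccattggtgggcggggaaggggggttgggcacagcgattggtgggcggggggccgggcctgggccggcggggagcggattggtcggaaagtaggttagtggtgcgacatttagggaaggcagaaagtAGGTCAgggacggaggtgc
Cry1: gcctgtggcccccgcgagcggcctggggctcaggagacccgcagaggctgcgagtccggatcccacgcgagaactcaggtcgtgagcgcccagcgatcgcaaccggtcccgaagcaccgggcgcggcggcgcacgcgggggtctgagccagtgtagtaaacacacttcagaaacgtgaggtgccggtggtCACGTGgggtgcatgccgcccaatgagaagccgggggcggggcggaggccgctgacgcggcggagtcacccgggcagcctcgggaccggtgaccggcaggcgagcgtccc
Per3: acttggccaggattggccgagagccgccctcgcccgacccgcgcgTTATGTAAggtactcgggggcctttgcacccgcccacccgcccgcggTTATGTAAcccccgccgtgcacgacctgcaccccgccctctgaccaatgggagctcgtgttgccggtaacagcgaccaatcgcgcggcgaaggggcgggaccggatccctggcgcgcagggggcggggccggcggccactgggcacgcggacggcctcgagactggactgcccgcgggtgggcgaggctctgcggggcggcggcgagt
Among the other called clock genes, Clock has the ROR core in 1 of 3 windows, Nfil3 in its single window, and Tef has E-boxes in both of its windows. No searched letters were in the windows of Nr1d1, Dbp, Rgs16 and Tfrc, which says only that they are not in those 300 bases. A match is a description of the sequence and not a measured site.

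Arntl, Clock, Cry1 and Nfil3 were higher after insulin glargine. Arntl, shown above with its ROR core, read 10.40, 10.05 and 10.34 in the insulin glargine arrays, against 8.58, 8.05 and 8.27 in the saline arrays (3.91-fold, log2 fold change 1.97, SE 0.19, adjusted p = 6.71e-05). Clock rose by 0.49 (SE 0.08). Cry1, with the E-box, had 9.42, 9.35 and 9.23 after insulin glargine and 7.86, 7.92 and 7.83 after saline (log2 fold change 1.47, SE 0.09, adjusted p = 3.39e-06). Its arrays lay close together within each group. Nfil3, a repressor at D-boxes, rose by 1.43 (SE 0.16), and Tfrc, the transferrin receptor, by 0.93 (SE 0.15).

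Nr1d1, Dbp, Per3 and Tef were lower. Nr1d1 read 9.75, 10.76 and 10.56 after insulin glargine and 12.02, 12.07 and 11.88 after saline (log2 fold change -1.63, SE 0.21), with insulin glargine replicate 1 the lowest array. Dbp had 8.80, 8.90 and 8.64 in the insulin glargine arrays, against 11.03, 11.47 and 11.16 in the saline arrays (log2 fold change -2.44, SE 0.19, adjusted p = 2.25e-05). Per3, with its pair of D-boxes, had 7.20, 7.59 and 7.39 after insulin glargine and 8.79, 9.10 and 8.94 after saline (log2 fold change -1.55, SE 0.14). In all 3 genes the arrays were separate by over 1 log2 unit. Tef fell by 0.69 on the log2 scale, a call lost in 12 of 20 alternatives and without any 1 array other than insulin glargine replicate 2. Several clock genes were not called. Per1 differed by 0.22 (SE 0.20), Per2 by 0.10 (SE 0.10), Cry2 by 0.31 (SE 0.09) and Nr1d2, which encodes REV-ERB beta, by -0.72 (SE 0.17). Without the hour at which each liver was taken, a difference in sampling time and the treatment cannot be told apart for these genes.

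**Figure D4:**
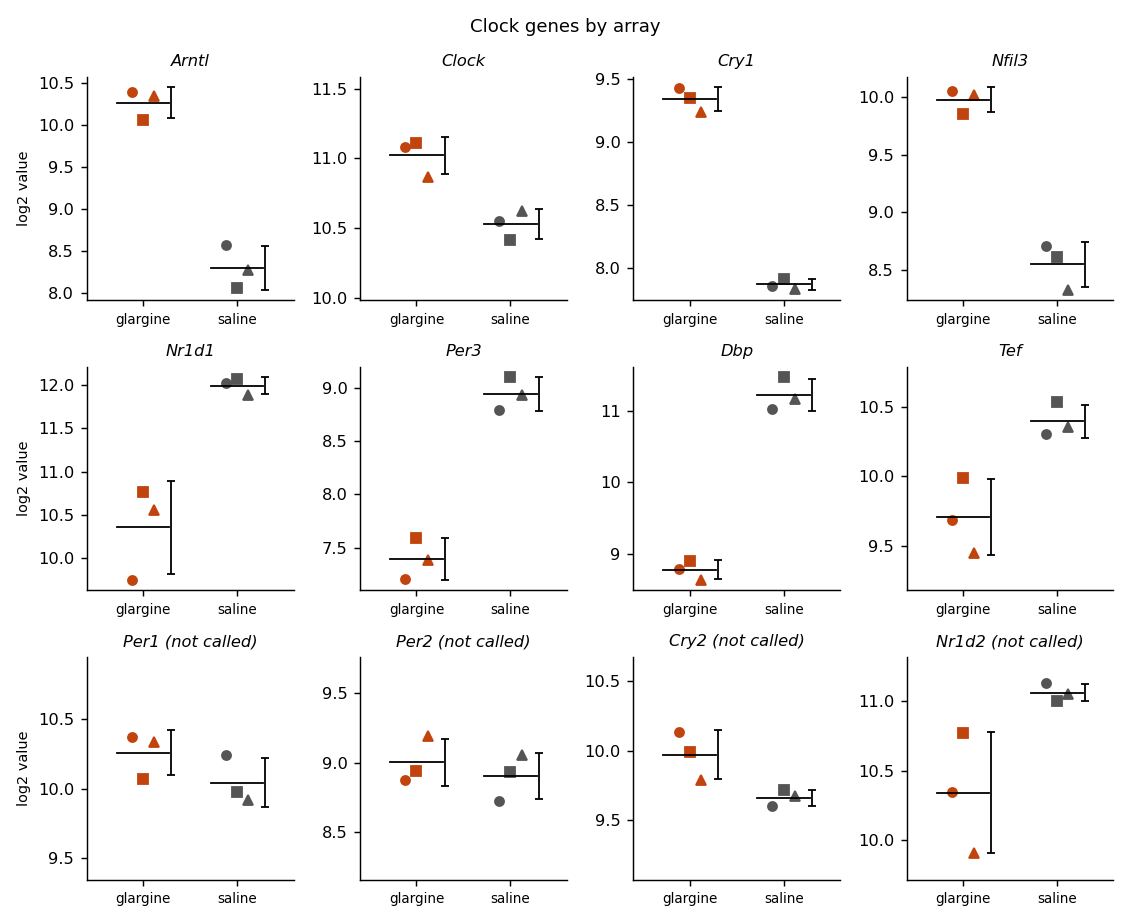
Log2 value of each array (y axis) for 12 clock genes, with insulin glargine left of saline. Points are arrays, lines are means and bars are the SD of 3 arrays. Arntl, Clock, Cry1 and Nfil3 are higher and Nr1d1, Per3, Dbp and Tef lower in every insulin glargine array, and the bottom row holds 4 genes that were not called.

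Inflammatory genes were called in both directions. Of 27 acute phase genes (14.8% called, beside 4.88% of all probe sets), 3 were called higher (Cd14, the metallothionein Mt1 and the zinc transporter Slc39a14) and 1 lower (Saa4), with a median of -0.00198. Saa1, the serum amyloid that surges in the acute phase response, read 5.94, 6.67 and 6.67 after insulin glargine and 5.98, 6.49 and 6.43 after saline, and Saa2 differed by -0.03 (SE 0.27). Saa genes are alike in sequence. The arrays did not overlap for 6 members that were higher and 3 that were lower, beside 24.9% of all probe sets in either direction. One of the 6 was Orm2, which read 11.44, 11.31 and 11.40 after insulin glargine and 10.78, 10.91 and 10.85 after saline. Its difference of 0.54 (SE 0.18, adjusted p = 0.0727) was not called, but was with only the 6 arrays of the comparison in the fit. Lcn2, lipocalin 2, had 12.31, 12.91 and 13.51 in the insulin glargine arrays and 12.56, 12.36 and 12.21 in the saline arrays. Its groups overlapped. Socs3, the feedback inhibitor of IL-6 signals, differed by 0.11 (SE 0.28). Saa4 fell by 0.93 on the log2 scale, a call lost without saline replicate 2 or 3, Slc39a14 rose by 0.61 (SE 0.11), a call lost without saline replicate 1, and Mt1 rose by 0.69 (SE 0.12), a call lost without insulin glargine replicate 3. Of 21 genes of IL-6, IL-1 and NF-kB signalling, the 1 called (4.76%) was Il1rn, the decoy ligand of the IL-1 receptor, which read 8.06, 8.30 and 8.01 after insulin glargine and 8.92, 9.14 and 8.98 after saline (log2 fold change -0.89, SE 0.11). Among 17 interferon response genes (17.6% called), Mx2 (0.62) and Oasl1 (0.58, a call lost without any 1 array other than insulin glargine replicate 3) were higher and Iigp1, an interferon-induced GTPase, fell by 1.15 on the log2 scale.

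No Kupffer cell marker was called beside Cd14. Kupffer cells are the resident macrophages of liver, and limma called none of their 11 markers, with a median of -0.18. At an unadjusted p under 0.05, 0 were higher and 2 lower, beside 5861 of all 25927 probe sets in either direction. The mean log2 value over the 11 markers ranged from 9.715 to 10.36 in the insulin glargine arrays, with replicate 3 the lowest, and from 10.07 to 10.29 in the saline arrays. The differences of the 11 markers ran from -0.511 (Adgre1) to 0.167, and Cd5l differed by -0.43 and Cd68 by -0.36. Clec4f, restricted to Kupffer cells, read 10.34, 10.74 and 10.56 after insulin glargine and 10.50, 10.64 and 10.64 after saline, and Timd4 differed by 0.14 (SE 0.21). Of 11 neutrophil markers, Csf3r alone was called (9.09%, beside 4.88% of all probe sets). It fell by 0.43 on the log2 scale. The call was lost in 13 of 20 alternatives. Among them were the fits without insulin glargine replicate 1 or 3 or saline replicate 1 or 3. No marker of T and NK cells (8 tested) or B cells (4 tested) was called by limma, and 1 of each list was lower at an unadjusted p under 0.05.

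Other immune genes moved beside Cd14. The following were picked after their values were seen. Cd180, a relative of TLR4 that restrains its signal, read 7.22, 7.29 and 7.37 after insulin glargine, against 8.54, 8.58 and 8.78 after saline (log2 fold change -1.34, SE 0.10, adjusted p = 1.07e-05). The lectin Clec12a had 7.24, 7.72 and 6.58 in the insulin glargine arrays and 8.47, 8.67 and 9.06 in the saline arrays, and C3ar1, the complement C3a receptor, fell by 0.97 on the log2 scale. In Clec12a, insulin glargine replicate 3 was again the lowest array. Il10, the anti-inflammatory cytokine, had 6.36, 6.84 and 5.81 after insulin glargine and 5.02, 5.21 and 5.13 after saline (log2 fold change 1.22, SE 0.21). It lies close to the threshold on dim probe sets in the saline arrays. Havcr2, the inhibitory receptor TIM-3, rose by 1.05 (SE 0.20), a call lost in 6 of 20 alternatives, and without any 1 array other than insulin glargine replicate 3. Mapkapk2, a kinase downstream of p38, read 12.47, 12.37 and 12.64 after insulin glargine and 11.17, 11.04 and 11.09 after saline (log2 fold change 1.39, SE 0.09, adjusted p = 4.04e-06), with a gap of over 1 log2 unit between the groups. Tlr4 itself differed by -0.26 (SE 0.12) and was not called.

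Endothelial genes were mixed. Of 9 sinusoidal endothelial markers, only Thbd was called (11.1%, beside 4.88% of all probe sets), and the list's median was -0.00242. The mean over the 9 markers ranged from 10.31 to 10.62 in the insulin glargine arrays and from 10.05 to 10.45 in the saline arrays. Lyve1, a hyaluronan receptor of sinusoids, read 11.86, 12.02 and 11.12 after insulin glargine and 10.29, 10.24 and 11.01 after saline. Its difference of 1.15 (SE 0.25, adjusted p = 0.011) was not called, and without insulin glargine replicate 3 it was called at 1.43. Stab2, another sinusoidal receptor, differed by 0.09 (SE 0.08) and Kdr, the main receptor of vascular endothelial growth factor, by -0.37 (SE 0.10). Further vascular genes were picked because they were called, so they give no count for the cell type. Cd93 had 10.40, 10.44 and 10.42 in the insulin glargine arrays, against 9.33, 9.41 and 9.51 in the saline arrays (log2 fold change 1.00, SE 0.08). Nos3, the endothelial nitric oxide synthase, rose by 0.69, Podxl by 0.78, Flt1, a receptor of vascular endothelial growth factor, by 0.62 and Ramp2, a partner of the adrenomedullin receptor, by 0.48. The part of cell numbers in these values was not tested.

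Ribosome biogenesis genes that were called were all higher. Of 24 members, 7 were called higher (29.2%, beside 2.25% of all probe sets called higher) and none lower, with a median of 0.32. Gnl3, nucleostemin of the nucleolus, read 10.24, 10.24 and 10.22 after insulin glargine and 9.72, 9.47 and 9.74 after saline (log2 fold change 0.59, SE 0.09). Heatr1, needed for ribosomal RNA transcription, rose by 0.65 (SE 0.11) and Nop58, a core protein of small nucleolar particles, by 0.75 (SE 0.15). The others were Utp20 (0.63), Nop56 (0.61), Rrp12 (0.59) and Nop14 (0.50). Without insulin glargine replicate 3 the list had 4 calls higher, and Nop58, Nop56, Utp20 and Nop14 lost theirs, while 1 other member gained a call. Nop58 and Nop56 also lost the call without any single saline array, Nop58 without insulin glargine replicate 1, and Nop56 without replicate 2. Utp20 and Nop14 lost it without insulin glargine replicate 2 or saline replicate 2 or 3.

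Genes of protein folding and amino acid catabolism were called in both directions. Of 22 genes of endoplasmic reticulum chaperones and the unfolded protein response, 1 was higher and 1 lower (9.09%, beside 4.88% of all probe sets). Hspa5, the chaperone BiP (0.46, SE 0.09), was higher and the sensor Ern1 (-0.52, SE 0.11) lower. Hspa5 lost its call without insulin glargine replicate 1 or 2 or saline replicate 1 or 2, and Ern1 without insulin glargine replicate 1 or 3 or saline replicate 1 or 3. Without insulin glargine replicate 3 the list had 5 higher and 0 lower. Among 14 heat shock genes (14.3% called, beside 4.88% of all probe sets), Hspb8 (0.47) and Hsp90aa1 (0.48) were higher, and Hsp90aa1 lost its call without the same single arrays as Hspa5. The other 2 probe sets of Hsp90aa1 were not called (0.62 and 0.51), and of Dnaja1, counted as not called, a second probe set was called higher (0.54). Of 19 genes of the urea cycle and amino acid catabolism, 4 were higher and 1 lower (26.3%). Slc25a15, which carries ornithine into mitochondria, had 13.57, 13.40 and 13.29 in the insulin glargine arrays and 12.63, 12.80 and 12.76 in the saline arrays (log2 fold change 0.69, SE 0.09). Ido2, which opens the tryptophan ring, read 9.55, 9.42 and 8.54 after insulin glargine, against 11.21, 11.37 and 11.31 after saline (log2 fold change -2.13, SE 0.22). Ppm1k, the phosphatase that activates breakdown of branched-chain amino acids, was picked after its values were seen and fell by 1.61 on the log2 scale.

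Socs2, the feedback inhibitor of growth hormone, was the 1 gene called among 15 of the growth hormone and IGF list (6.67%, beside 4.88% of all probe sets). It read 10.31, 10.07 and 10.48 after insulin glargine and 12.11, 11.53 and 11.40 after saline (log2 fold change -1.39, SE 0.28). Its second probe set had -1.02 and was not called, and the call was lost without insulin glargine replicate 1 or 2 or saline replicate 1 or 2. Igf1 differed by -0.04 (SE 0.08). Of 23 immediate early genes, Egr1 and Klf10 were called, both lower (8.7%, beside 4.88% of all probe sets). Klf10 lost its call without insulin glargine replicate 1 or saline replicate 3. Egr1, a zinc finger factor that responds to growth signals within minutes, read 7.90, 7.85 and 8.08 in the insulin glargine arrays and 10.07, 9.31 and 9.88 in the saline arrays (log2 fold change -1.81, SE 0.25). Egfr fell by 0.64 and Met, the receptor of hepatocyte growth factor, by 0.71 on the log2 scale, beside Erbb3, while Erbb2 differed by -0.11 (SE 0.11). Egfr lost its call without insulin glargine replicate 3 or saline replicate 2 or 3. These receptors other than Erbb3 were picked after their values were seen.

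Of 18 autophagy and lysosome genes, 3 were called lower and none higher (16.7%, beside 4.88% of all probe sets). Depp1, a FoxO target that affects autophagy, had 6.93, 8.33 and 7.18 after insulin glargine and 9.56, 9.33 and 9.37 after saline (log2 fold change -1.94, SE 0.34). Insulin glargine replicate 2 was over 1 log2 unit above the other insulin glargine arrays, and the call was lost without insulin glargine replicate 1 or 3 or saline replicate 1. Gabarapl1, which coats autophagosomes and is a FoxO target, fell by 0.70 on the log2 scale and Atg5, needed to form them, by 0.46. Of 25 cytochromes P450 and their regulators, 2 were lower (8%, beside 4.88% of all probe sets). They were Ahr, the aryl hydrocarbon receptor (-0.86, SE 0.14), and Cyp2b9 (-0.35, SE 0.07). The call of Cyp2b9 was lost without any 1 of the 6 arrays. Nfe2l2, the gene of the antioxidant factor NRF2, and Adh4, an alcohol dehydrogenase, were picked after their values were seen and fell by 1.35 and 1.55 on the log2 scale. Limma called none of 20 cell cycle genes or 18 proteasome genes. At an unadjusted p under 0.05, 5 of each list were higher, with 1 cell cycle and 2 proteasome genes lower. Of all 25927 probe sets tested, 5861 had such a p in either direction. These counts use the brightest probe set of a gene, and a second one of the proteasome gene Psmc1 was called higher (0.38).

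Some of these genes differed between insulin glargine and the fusion insulins at the same dose and time. Limma called 1132 probe sets (4.37%) between insulin glargine and Albulin and 1261 (4.86%) between insulin glargine and Insulin-Apo, in fits that share the insulin glargine arrays. Cd14 was higher after insulin glargine than after Albulin (log2 difference 2.30, SE 0.15, adjusted p = 5.01e-06) and than after Insulin-Apo (2.01, SE 0.15, adjusted p = 1.18e-05). Arntl (1.36 and 1.36), Cry1 (1.35 and 1.46), Thbd (1.62 and 2.05) and Plin5 (1.60 and 1.63) were likewise higher than after Albulin and Insulin-Apo, in that order. Erbb3 (-2.34 and -2.04) and Nr1d1 (-1.90 and -1.83) were lower than after either. The genes in this paragraph were named for their difference from saline in the same insulin glargine arrays. Their differences from the fusion insulins are therefore not independent of that choice.

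Saa1, Socs3 and Orm2 were lower than after either fusion insulin. Saa1 read 5.94, 6.67 and 6.67 after insulin glargine, against 12.18, 12.37 and 11.00 after Albulin and 11.82, 12.43 and 10.65 after Insulin-Apo, and its differences were -5.43 (SE 0.42) and -5.21 (SE 0.42). Socs3 differed from Albulin by -2.27 and from Insulin-Apo by -1.78, and Orm2, an orosomucoid, by -1.97 and -2.17, all called. Acly and Acaca were lower than after Albulin (-1.06 and -1.03) and were not called against Insulin-Apo (0.46, SE 0.17, and 0.06, SE 0.13). Nfil3 differed from Albulin by -0.31 (SE 0.16) and from Insulin-Apo by 0.02 (SE 0.16), and Gnl3 by 0.04 (SE 0.09) and -0.01 (SE 0.09), with no call in either.

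**Figure D5:**
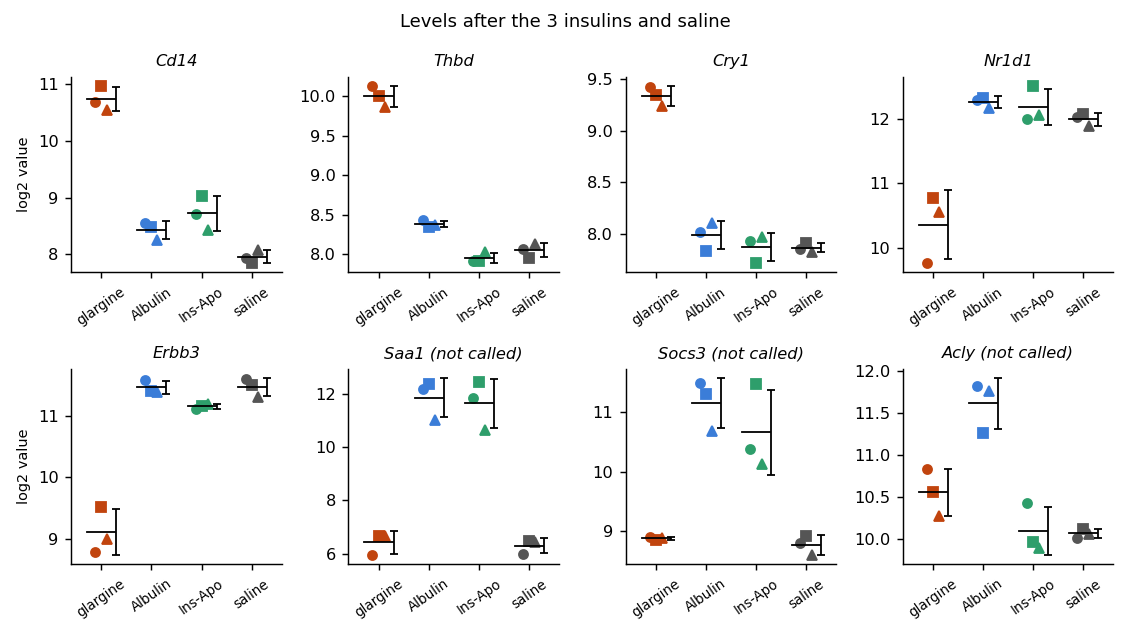
Log2 value of each array (y axis) for 8 genes in the 4 groups, with insulin glargine at the left and saline at the right. Points are arrays, lines are means and bars are the SD of 3 arrays, and "not called" refers to insulin glargine against saline. Cd14, Thbd and Cry1 are highest and Nr1d1 and Erbb3 lowest after insulin glargine, while Saa1 and Socs3 after insulin glargine sit with saline and below Albulin and Insulin-Apo.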

How the data were processed

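Total liver RNA was amplified to biotinylated cRNA and read on Affymetrix Mouse Gene ST arrays. Background correction and normalization were by RMA (Robust Multichip Average), per the submitters' processing notes, and the authors deposited 1 log2 value per probe set and array. Which RMA version and annotation build were used, and whether the arrays were normalized jointly, is not given in the sources used here. RMA draws the arrays to 1 distribution, and their medians lay between 7.70 and 7.77, so changes are relative to the array as a whole. Gene symbols came from the platform annotation, and 21553 of 21640 probe sets with 1 symbol matched a RefSeq gene. No gene was named from the 1321 probe sets with several symbols, and 5252 had none.

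The comparison was fitted with limma 3.58.1 in R 4.3.3 on all 12 arrays, with a mean for each of the 4 groups and 8 residual degrees of freedom. Calls required B over 0 at a prior proportion of 0.01, and p-values were adjusted over all 25927 probe sets. For a gene with several probe sets the one with the highest mean over the arrays was used. The fit was first tested on simulated data with the same SD of a probe set in every group. That test did not cover the wider spread of the insulin glargine arrays. The SE and p of a probe set pool the spread of all 4 groups. The mean SD within the group was 0.158 for insulin glargine, against 0.0987 for saline, 0.105 for Albulin and 0.108 for Insulin-Apo. The pooled SE can therefore be too small for genes that vary more among the insulin glargine arrays, which favours calls.

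The members and the 46 gene lists were chosen with earlier results of these data known. Named genes were up to 15 called genes with the largest difference in each direction, up to 5 of each list with the smallest p, a fixed set of insulin and liver genes, and those marked as picked after their values were seen, which also hold Saa1, Saa2, Lcn2, Socs3, Per1, Per2, Cry2, Nr1d2, Sqle, Hmgcs1, Clec4f, Timd4, Tlr4, Stab2, Igf1, Erbb2 and the vascular genes. The alternatives concerned the filter, the normalization, the replicate number as a block, the prior variance, array weights, the arrays in the fit, the threshold, the choice of probe sets, and each array left out in turn. With 3 arrays a group, the number of arrays limits precision. Plots used matplotlib 3.10.9 (Python 3.11.15).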

Additional observations from a re-analysis of the deposited data

How the results depend on the processing

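The number of called probe sets stayed within 1.5 times the value given under most alternatives, and none of the 130 named genes called changed direction in any. Outside that range were the fits with only the 6 arrays of each comparison and the threshold of adjusted p under 0.05. The fits without saline replicate 2, Albulin replicate 1 or Insulin-Apo replicate 2 were also outside it. The counts that follow include alternatives within the range. With only the 6 arrays of each comparison, the calls were 783 for insulin glargine against saline (367 higher and 416 lower), 701 against Albulin and 644 against Insulin-Apo. With an adjusted p under 0.05 as the threshold, they were 2852 (1326 higher and 1526 lower), 2326 and 2821. Leaving out an array at a time gave 821 to 1367 calls against saline (357 to 728 higher and 464 to 669 lower), 730 to 1192 against Albulin and 815 to 1272 against Insulin-Apo. The lowest counts came without saline replicate 2, Albulin replicate 1 and Insulin-Apo replicate 2, and the highest without insulin glargine replicate 3. With the replicate number as a block, the calls were 1132, 998 and 1122. Deviations of insulin glargine and saline arrays with the same number correlated at -0.179, -0.0971 and -0.27, so the numbers were not taken to pair the arrays. Weights per array gave 1627 calls against saline, with a weight of 0.203 for insulin glargine replicate 3, and 1 weight per group gave 994. Of the 130 named genes called, 74 kept the call in all 20 alternatives and 56 lost it in at least 1, while 72 others gained a call in at least 1. Without insulin glargine replicate 3, 105 of the 130 kept their call. The cause of these shifts was not tested.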

Other observations

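These genes and the families counted were picked after their values were seen, so the counts give no test of a family. Of all probe sets, 2.25% were called higher. Of 12 alpha- and beta-tubulin genes tested, 3 were called higher and 0 lower, and the 9 not called lay between -0.12 and 0.50. Beside Tubb2a, Tuba8, an alpha-tubulin, read 10.51, 11.06 and 10.47 after insulin glargine and 9.59, 9.24 and 9.38 after saline (log2 fold change 1.28, SE 0.16), and Tubb6 rose by 1.02 (SE 0.15). Tubb5 differed by 0.22 (SE 0.15), Tuba1a by 0.50 (SE 0.11) and Tuba4a by 0.43 (SE 0.11), and none of them was called. Of 16 citric acid cycle genes, 3 were called higher and 0 lower, and the 13 not called lay between -0.24 and 0.20. Idh3a, a subunit of isocitrate dehydrogenase, had 12.07, 12.45 and 12.16 in the insulin glargine arrays, against 11.30, 11.13 and 11.25 in the saline arrays (log2 fold change 1.00, SE 0.12). Cs, citrate synthase, rose by 0.79 (SE 0.12) and Fh1, fumarate hydratase, by 0.50 (SE 0.06), while the partner subunits Idh3b (-0.10, SE 0.08) and Idh3g (0.06, SE 0.07) were not called.

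Metal transporters were among the called genes. Slc30a10, which exports manganese, read 9.87, 9.80 and 10.11 after insulin glargine and 8.87, 8.73 and 8.87 after saline (log2 fold change 1.10, SE 0.09). Slc41a2, a magnesium transporter, rose by 1.07 (SE 0.19), a call lost without insulin glargine replicate 2 or saline replicate 2, and was lower than after Albulin (log2 difference -1.75) or Insulin-Apo (-1.80). Around the central vein, Lgr5, a receptor of R-spondins that amplifies WNT signals, read 7.75, 7.92 and 7.65 in the insulin glargine arrays and 9.34, 8.93 and 9.31 in the saline arrays (log2 fold change -1.42, SE 0.17). Notum, a WNT target that inhibits the pathway, fell by 0.63 on the log2 scale, a call lost in 7 of 20 alternatives, among them the fits without any 1 array other than insulin glargine replicate 3. The WNT targets Axin2 (0.14, SE 0.11), Glul (-0.27, SE 0.10) and Cyp2e1 (-0.02, SE 0.06) were not called, but Glul was called lower without insulin glargine replicate 3 (-0.40, adjusted p = 0.00559, beside 0.00559 to 0.4 over all alternatives).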
